A study of Phaseolus coccineus with 4 samples.

Results

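The soybean genome array carries SLE2 and LEA-2, listed as genes of late embryogenesis proteins, and LEC1-A, a gene of an embryo regulator. Their signals were followed here in young embryos of Phaseolus coccineus, the scarlet runner bean, at the globular stage. Members were the probe sets whose single gene symbol in the platform annotation was SLE2, LEA-2 or LEC1-A, or any other symbol starting with SLE or LEA-. The rule found 3 genes with 1 probe set each among 8677 soybean probe sets with 1 symbol and 37593 soybean probe sets in all. No other symbol started with SLE or LEA-.

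The study compared both regions of the globular embryo, the embryo proper, which forms the plant, and the suspensor, the stalk that joins it to the seed. The labels give no genotype other than the cultivar, Hammond's Dwarf Red Flower, which all samples share, as they do the growth at 22 °C in days of 16 h light and 8 h dark and the age of 6 days after hand pollination. Each region had 2 samples that the labels call biological replicates, cut by laser from sections 6 µm thick, and nothing says which plants they came from, so that p-values cover the spread between these samples, which may be technical. In such tissue samples, fewer cells of a type and less RNA per cell cannot be told apart. The RNA was amplified before it was labelled, and bean RNA was hybridised to probes made for soybean, so a low signal can also come from a bean transcript that differs from the probe.

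Late embryogenesis abundant (LEA) proteins are small hydrophilic proteins that build up in seeds as they dry and help cells to survive the loss of water. SLE2 belongs to the Em-like family of soybean LEA genes, whose members are known from late seed development and respond to abscisic acid. LEA-2 is listed under the name of the same class of proteins. LEC1-A is a soybean copy of LEAFY COTYLEDON1, which encodes an NF-YB subunit of the CCAAT-binding NF-Y complex. In Arabidopsis, LEC1 acts from early embryo stages, is needed for normal suspensor form and switches on seed maturation.

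At this stage the 3 genes gave weak signals or none above background. SLE2 was above background in suspensor alone, LEA-2 was above background on 3 of the 4 arrays, and LEC1-A was above background on no array. The signal of each gene was higher on both suspensor arrays than on both embryo proper arrays, an order that 19.8% of tested soybean probe sets had. Neither SLE2 nor LEA-2, the pair bright enough to be tested, passed the test between regions.

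Each array also carries probe sets for Phytophthora and a nematode, and the 95th percentile of their signals was taken as its background level. This level was 881 and 873 for embryo proper arrays 1 and 2, and 925 and 1034 for suspensor arrays 1 and 2. Of the soybean probe sets, 23.3% and 23.0% were above it in embryo proper, against 21.8% and 19.5% in suspensor. Suspensor array 2 thus had the highest background level and the fewest probe sets above it. The arrays also differed by region in the RNA put into amplification, about 60 and 75 ng for embryo proper and 106 and 137 ng for suspensor, and in the median signal of the hybridisation spikes, 46706 and 58957 against 97327 and 159448. The part of these values in the results below was not tested. With 2 arrays a region, precision is limited.

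SLE2 read 720 and 478 on the embryo proper arrays, against 1161 and 1189 in suspensor. Both suspensor signals lay above the background level, at 1.26 and 1.15 times it, and both embryo proper signals lay below, at 0.818 and 0.548 times it. The regions did not overlap, and the suspensor arrays were much closer to each other than the embryo proper arrays, with gaps of 0.03 and 0.58 on the log2 scale. The same pattern of detection, in both suspensor samples but in neither sample of embryo proper, was found for 421 soybean probe sets, 1.12% of all. The suspensor mean was 1175 ± 19.4 (SD, n = 2) and the embryo proper mean 599 ± 171 (SD, n = 2). Since both embryo proper signals were below background, the difference was given as a bound, the suspensor level over the lowest soybean signal above background on each embryo proper array. It put the mean of the suspensor samples at least 1.33-fold higher, and no test was run on it. This bound is taken from the sample means alone, and the spread between samples, given next, does not exclude equal levels.

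The fitted log2 difference of SLE2, suspensor minus embryo proper, was 0.98 ± 0.54 (SE), with a 95% interval from -0.3 to 2.26. It did not pass limma's test (adjusted p = 0.35), so the interval held both no difference and a 4.8-fold higher signal in suspensor. Over all 8972 probe sets tested, the calls were 80 for suspensor, 0.892%, and 167 for embryo proper, 1.86%, a split that was 185 to 233 after quantile normalization. SLE2 entered the test through its suspensor signals alone, so the fitted value rests on embryo proper signals below background. Of 3146 tested probe sets within 0.5 of its mean log2 level, 30 were called, and the smallest of their differences was 2.65 in absolute size.

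LEA-2 was the brightest of the 3 on every array, with signals of 1144 and 681 in embryo proper, against 1311 and 1476 in suspensor. The signal of embryo proper array 1 stood at 1.3 times the background level, that of array 2 at 0.78 times, and those of the suspensor arrays at 1.42 and 1.43 times. LEA-2 was thus above background in both suspensor samples and in 1 of the 2 embryo proper samples, a pattern found for 0.851% of soybean probe sets. Signals of different probe sets depend on the probes, so this order of brightness is not an order of transcript levels. The suspensor mean was 1394 ± 117 (SD, n = 2) and the embryo proper mean 912 ± 327 (SD, n = 2), and the regions did not overlap. The gap between the embryo proper arrays, 0.74 on the log2 scale, was wider than the difference between regions, 0.65 ± 0.46 (SE).

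The difference of LEA-2 did not pass the test (adjusted p = 0.45), and its 95% interval, -0.44 to 1.73, ran from a 0.739-fold to a 3.32-fold level in suspensor relative to embryo proper. Of the tested probe sets, 45.8% had a difference at least as large. Among 3750 tested probe sets within 0.5 of its mean log2 level, 34 were called, none with an absolute difference under 2.06. With 1 array left out at a time the difference of LEA-2 ranged from 0.28, without embryo proper replicate 2, to 1.01, without embryo proper replicate 1, so its size moved most with the choice of embryo proper array.

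LEC1-A read 250 and 181 in embryo proper, against 360 and 823 in suspensor, all below background. They came to 0.284 and 0.207 times the background level in embryo proper and 0.389 and 0.796 times in suspensor. Ranked among the Phytophthora and nematode probe sets of the same array, LEC1-A was at percentiles 63.6 and 56.4 in embryo proper, against 71.0 and 90.3 in suspensor. The highest, on suspensor array 2, was still exceeded by 2261 of those probe sets. LEC1-A was therefore not detectable on these arrays, which does not show that its transcript was absent. It was among 24694 soybean probe sets, 65.7%, that were above background on no array.

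Although both suspensor signals of LEC1-A were higher than both embryo proper signals, with means of 592 ± 327 (SD, n = 2) and 215 ± 49.1 (SD, n = 2), no fold is given because all 4 lay below background. The suspensor arrays lay further apart, by 1.16 on the log2 scale, than the embryo proper arrays, by 0.44. The same order, both suspensor arrays over both embryo proper arrays, was found in 20.4% of the soybean probe sets below background on all 4 arrays. It was also found in 21.6% of the Phytophthora and nematode probe sets.

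**Figure D1:**
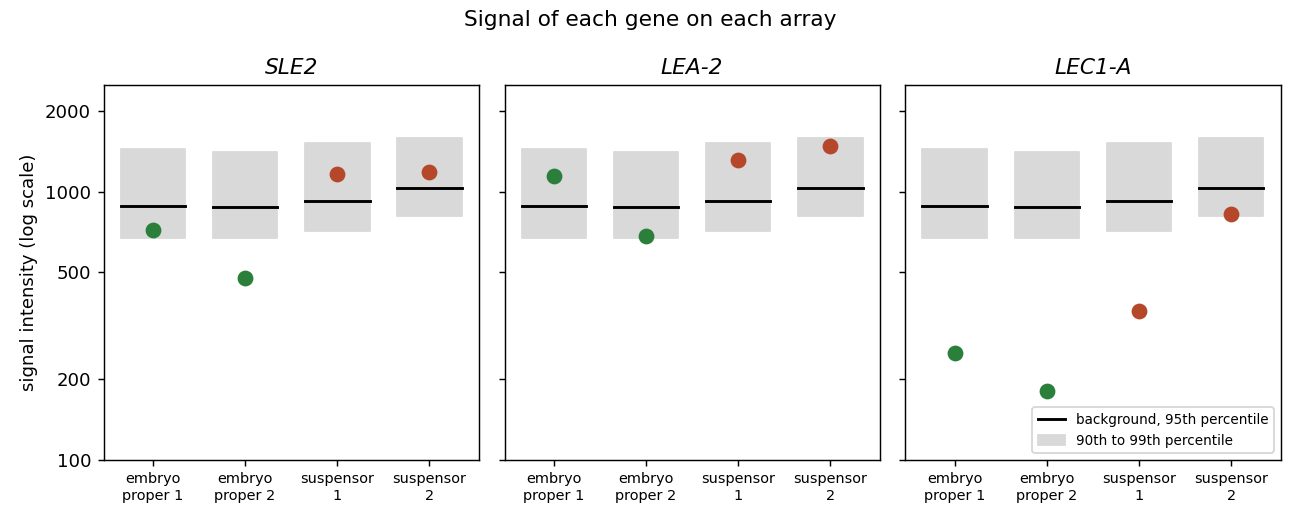
Signal intensity (log axis) of SLE2, LEA-2 and LEC1-A on each of the 4 arrays, embryo proper in green and suspensor in red, with the background level of each array (95th percentile of Phytophthora and nematode probe sets, black line) and the range from its 90th to its 99th percentile (grey). SLE2 is above the line on both suspensor arrays, LEA-2 on 3 arrays and LEC1-A on none, and every signal above the line lies inside the grey range.

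Detection of these genes depended on where the background level was set. At the 99th percentile none of the 3 was above background on any array, and at the 90th percentile SLE2 was above it on 3 arrays, LEA-2 on all 4 and LEC1-A on 1, suspensor array 2. Every signal of these genes that counted as above background thus lay between the 95th and the 99th percentile of the Phytophthora and nematode probe sets.

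Other genes of seed maturation were read from 5 lists by symbol, of 55 genes and 78 probe sets with the members included, of which SBP65, a seed biotin protein, stands in both the LEA and the storage list. Of these probe sets, 61, or 78.2%, were above background on no array. The share was 59.9% of the soybean probe sets with 1 symbol, from which the lists were drawn. It was 65.7% of all soybean probe sets and 87.9% of the Phytophthora and nematode probe sets. A further 6 were above background on exactly 1 array and 11 on 2 or more. The 11, from 9 genes, were tested, and 1 was called, higher in suspensor, a call made for 0.892% of all 8972 tested probe sets. The median log2 difference of the 11 was 0.52, against -0.18 over all tested probe sets. Of the 11, SLE2 passed the filter through 1 region alone, which favours a difference toward that region. With so few probe sets this median is only a description.

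**Figure D2:**
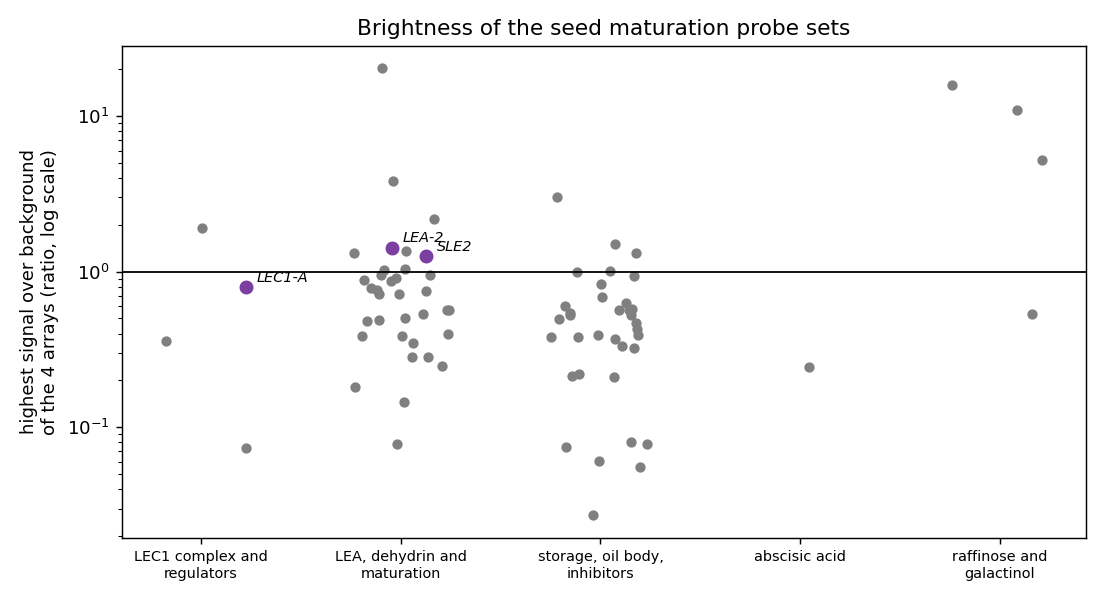
Highest ratio of signal to background over the 4 arrays (log axis) for each of the 78 probe sets, by list (SBP65 in both of its lists), with the members in purple and named and the background level as a line at 1. SLE2 and LEA-2 lie just above the line and LEC1-A just below it, while most probe sets of the LEA and storage protein lists are under it and the brightest is PM37, at 20.3.

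Partners of LEC1 and regulators of maturation were represented by 4 genes, LEC1-A, NF-YA05, NF-YA13 and WRI1B. NF-YA05, a subunit of the class that joins NF-YB and NF-YC to bind CCAAT, was the one that passed the background filter. Its signals were 1682 and 423 in embryo proper, against 1101 and 1347 in suspensor, with the second embryo proper signal below background. The regions overlapped, and the log2 difference of 0.52 ± 0.68 (SE) did not pass (adjusted p = 0.7). It was 1.49 without embryo proper replicate 1 and -0.46 without embryo proper replicate 2, so its sign rested on 1 array. NF-YA13, of the same class, had signals of 8.5 to 64 over the 4 arrays, and WRI1B, named for the WRINKLED1 regulators of seed oil synthesis, had signals of 78 to 314, all below background.

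The list of LEA, dehydrin and maturation proteins held 27 genes with 35 probe sets, of which 26 were above background on no array. SLE2 and LEA-2 were among the 6 probe sets of 5 genes that were tested. None of the 6 was called in either direction by limma, and 0 had an unadjusted p under 0.05. Over all 8972 tested probe sets, 1802 had such a p, and 0.892% and 1.86% were called for suspensor and embryo proper. The median log2 difference of the 6 was 0.24. The other 4 came from the PM genes, named for seed maturation proteins. Of the 22 PM genes, 3 had a tested probe set: PM30, PM31 and PM37.

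PM30, a LEA protein of soybean seeds, was above background on all 4 arrays with both of its tested probe sets. The brighter one read 3388 and 2730 in embryo proper, against 3296 and 1367 in suspensor, and the other had 1197 and 1910 in embryo proper, against 1592 and 1406 in suspensor. The regions overlapped in both, with log2 differences of -0.51 ± 0.47 (SE) and -0.02 ± 0.4 (SE) that did not pass (adjusted p = 0.57 and 0.99). A further PM30 probe set, with shared probes, had signals of 22 to 409 and was below background on every array. PM30 thus had a signal above background in every sample, which SLE2 and LEA-2 did not have.

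PM37 was the brightest of the seed maturation probe sets, with signals of 6271 and 6704 in embryo proper, against 18811 and 3607 in suspensor. The suspensor samples lay on either side of the embryo proper samples, and the log2 difference of 0.35 ± 0.69 (SE) did not pass (adjusted p = 0.81). Without suspensor replicate 2 the difference was 1.53 and was called (adjusted p = 0.037), with the spread taken from embryo proper alone, and without suspensor replicate 1 it was -0.84 (adjusted p = 0.087). Its further probe set, with shared probes, had signals of 97 to 584, below background on all arrays. PM31 read 382 and 887 in embryo proper, against 963 and 432 in suspensor, above background on 1 array of each region, with a log2 difference of 0.14 ± 0.85 (SE, adjusted p = 0.94).

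LEA5, listed like LEA-2 under the name of the protein class, was not tested. It was above background on embryo proper array 1 alone, with signals of 1193 and 500 in embryo proper, against 377 and 595 in suspensor. Of the LEA-named genes, LEA-2 thus had its higher signals in suspensor and LEA5 its highest in an embryo proper sample, and neither shows a difference between regions that was tested and called. PM23 by 1 of its probe sets and PM12 by 1 of its probe sets were also above background on 1 array, PM23 at 1365 on suspensor array 2 and PM12 at 895 on embryo proper array 2. The other 17 PM genes, with MP2 and SBP65, were below background on every array.

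Storage proteins, oil body proteins and protease inhibitors, the main products of maturing cotyledons, formed a list of 21 genes and 35 probe sets, of which 31 were above background on no array. None of the glycinin genes GY1, GY2, GY3, GY5 and GY7 was above background on any array, and their signals ranged from 28 to 585. Of the conglycinin genes, CG-1 was below background on all arrays, while CG-BETA-1 by 1 of its 2 probe sets read 712 and 792 in embryo proper, against 624 and 1564 in suspensor, above background on suspensor array 2 alone. The trypsin inhibitor gene KTI-3 by 1 probe set was above background on embryo proper array 1 alone, at 1164, and VSPA, a vegetative storage protein, by 1 of its 8 probe sets on suspensor array 2 alone, at 1040. The probe set of this list that was tested was SBPRP. It entered by the first letters of its symbol, SBP, and whether it encodes a storage protein was not checked. Its signals were 2666 and 1462 in embryo proper, against 2143 and 2294 in suspensor, with a log2 difference of 0.17 ± 0.41 (SE, adjusted p = 0.85). Summed over the list, SBPRP included, the signal was 11327 and 10205 in embryo proper, against 10066 and 13920 in suspensor. The genes of this list served as the marker of older embryo tissue. The glycinins and CG-1 were not detectable in either region, while CG-BETA-1, KTI-3 and VSPA were each above background on 1 array. The list thus does not show whether RNA of older embryo tissue was present.

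Of the list for abscisic acid, the hormone of seed maturation, 1 gene was matched, ZEP, an enzyme of its synthesis. ZEP had signals of 43 to 225, below background on all arrays.

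The genes of galactinol and raffinose synthesis, sugars that build up in drying seeds, included 1 call. MIPS4, a myo-inositol-phosphate synthase, read 1108 and 813 in embryo proper, against 4799 and 3672 in suspensor, and its log2 difference of 2.13 ± 0.37 (SE) passed limma's test (adjusted p = 0.037). Its probe set has shared probes and may read more than 1 transcript, and the call was lost without embryo proper replicate 2 (1.91, adjusted p = 0.12), with arrays centred on the non-plant probe sets (1.96, adjusted p = 0.064) and without a variance trend (2.13, adjusted p = 0.085). The 2 probe sets of MIPS were higher on both suspensor arrays, an order that 19.8% of tested probe sets had. Both are annotated to the same sequence, so they do not count as separate support. The brighter one read 5663 and 5411 in embryo proper, against 14751 and 8370 in suspensor. Its difference of 1 ± 0.36 (SE) did not pass limma's test (adjusted p = 0.2). In the other the signals were 3248 and 6028 against 10124 and 6315, and the difference was 0.85 ± 0.42 (SE, adjusted p = 0.31). The brighter one was called without suspensor replicate 2 (1.41, adjusted p = 0.047), where the spread comes from embryo proper alone. The inositol these enzymes make also goes into phosphate stores and membrane lipids. GOLS, the galactinol synthase that starts the raffinose series, had signals of 40 to 555, below background on all arrays.

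**Figure D3:**
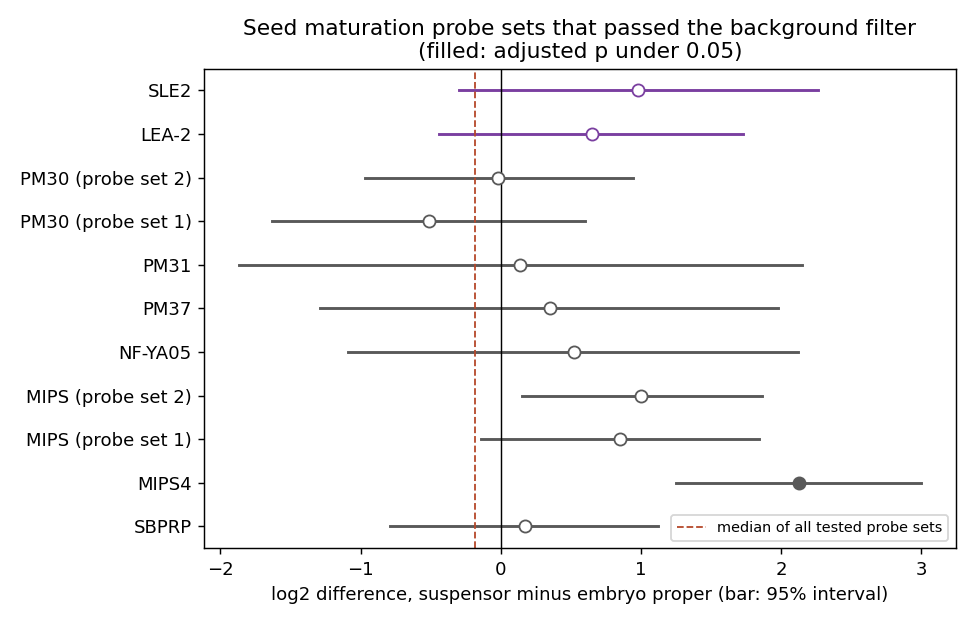
Log2 difference, suspensor minus embryo proper, with its 95% interval for the 11 seed maturation probe sets that passed the background filter, the members in purple, called ones filled, and the median of all tested probe sets, -0.18, as a dashed line. The intervals of SLE2 and LEA-2 include 0, and MIPS4 is the one called.

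The regions were also described by markers of other kinds. Of 11 probe sets for embryo proper markers, PSAD, CAB3 and SERK1, 6 were tested, 2 were called higher in embryo proper and 0 higher in suspensor. Over all tested probe sets the shares of such calls were 1.86% and 0.892%. The calls were 1 probe set each of PSAD, which passed the filter through its embryo proper signals alone, and CAB3, and SERK1 did not pass (adjusted p = 0.089). The other tested PSAD probe set went the other way, with an uncalled log2 difference of 0.37 (adjusted p = 0.72). The other tested CAB3 probe sets, at -0.5 and -0.85, were not called either (adjusted p = 0.39 and 0.54). The markers were chosen with earlier results known, so these counts describe the samples and are no independent check of the labels. Their summed signal was 41405 and 52914 in embryo proper, against 18166 and 12087 in suspensor. The suspensor marker matched in the annotation, GA20OX3, was below background on every array, at 38 to 772, so the suspensor label was not checked by a gene of its own. Symbols chosen for endosperm and vascular tissue matched none. Of 8 seed coat probe sets, for PRX and ANR1 genes, 4, or 50.0%, were above background on no array. The share was 59.9% of soybean probe sets with 1 symbol. On embryo proper arrays 1 and 2, 3 and 1 of the 8 were above background, against 1 and 0 on the suspensor arrays. The summed signal of the 8 was 5114 and 3168 in embryo proper, against 3657 and 2451 in suspensor. The part of RNA from other tissues in the signals of SLE2 and LEA-2 was not tested.

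The genes nearest in pattern to SLE2 and LEA-2 were found over the 4 arrays among 341 other genes that were tested and had a single symbol other than a LOC placeholder, by the distance between their log2 signals after the mean of each probe set was taken away. With 4 arrays many genes share a pattern, so the distances are a description. Nearest to SLE2 was GLXI, a glyoxalase, at a distance of 0.03, with signals of 740 and 486 in embryo proper, against 1193 and 1243 in suspensor. GLXI, too, was above background in suspensor alone, and its log2 difference of 1 did not pass (adjusted p = 0.34). IDH1, an isocitrate dehydrogenase, at 0.31, and PMM, a phosphomannomutase, at 0.35, came next, both above background on all 4 arrays. LEA-2 was at a distance of 0.37 from SLE2, against a median of 1.49 over all probe sets compared.

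Nearest to LEA-2 was CYP83D1, a cytochrome P450, at a distance of 0.22, with signals of 1117 and 770 in embryo proper, against 1247 and 1367 in suspensor. PMM, at 0.22, and SGF14G, a 14-3-3 protein, at 0.23, came next. As with LEA-2, the lowest signal of each of these lay on embryo proper array 2, and none passed the test (adjusted p = 0.56, 0.38 and 0.57).

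**Figure D4:**
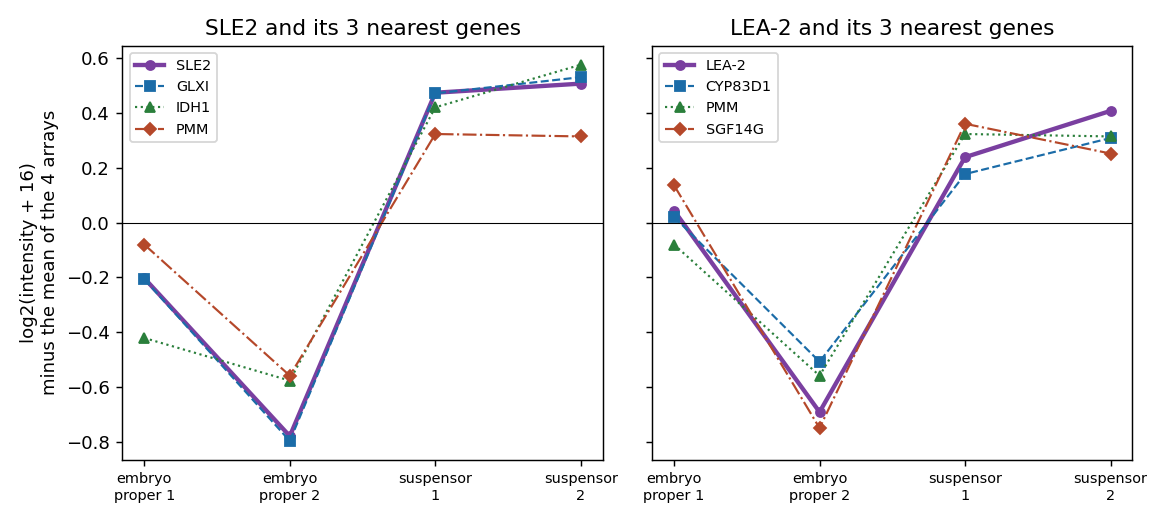
Log2(intensity + 16) minus the mean of the 4 arrays for SLE2 (left) and LEA-2 (right), each with its 3 nearest genes by pattern. All lines are lowest on embryo proper array 2, and GLXI follows SLE2 within a distance of 0.03.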

How the data were processed

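Per the submitters' processing notes, the arrays were read with GCOS 1.3. The authors deposited 1 intensity for each probe set, on a linear scale. How probes were summarised is not given in the sources used. The mean intensity without the outer 2% at each end was 500 on all 4 arrays, and the deposited scale was kept.

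Symbols came from the platform annotation. The bean gene table, of 34063 genes, shared 0 identifiers with it, so no positions or sequences are given.

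Soybean probe sets above background on at least 2 of the 4 arrays were tested as log2(intensity + 16), suspensor against embryo proper, with limma 3.58.1 in R 4.3.3 (lmFit, eBayes with a variance trend, Benjamini-Hochberg over 8972 probe sets), after tests on simulated data. Folds are on that scale and understate changes of dim probe sets.

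Named were the members, list genes that passed the filter or else the brightest of their list, and the 3 genes nearest in pattern. Further list genes were named after their values were seen. Members and lists were chosen with earlier results of these data known. Alternatives covered pseudocount, scaling, background, filters, the variance trend, a replicate block and leaving out arrays.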

Additional observations from a re-analysis of the deposited data

How the results depend on the processing

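SLE2 and LEA-2 stayed positive and uncalled in each alternative that gave a value, 11 for SLE2 (0.69 to 1.27, adjusted p 0.27 to 0.83) and 13 for LEA-2 (0.28 to 1.01, adjusted p 0.37 to 0.92). Centring on tested or on Phytophthora and nematode probe sets moved the median of all tested differences from -0.18 to -0.062 and -0.35, SLE2 to 1.1 and 0.82 and LEA-2 to 0.77 and 0.48; the uncalled values of PM31, SBPRP and the dimmer tested PM30 probe set changed sign under at least 1 scaling, and those of NF-YA05, PM31, PM37, SBPRP and both tested PM30 probe sets with at least 1 array left out. With the background at the 99th percentile or with detection on all 4 arrays neither was tested, nor was SLE2 with 1 suspensor array left out. LEC1-A was tested with no filter alone, where its fitted value (1.3, adjusted p = 0.7) compares signals that are all below background and gives no difference in level. At the 90th and 99th percentile the arrays above background numbered 3 and 0 for SLE2, 4 and 0 for LEA-2 and 1 and 0 for LEC1-A. Calls higher in suspensor, 80 as reported, were 185 after quantile normalization, 129 and 48 when centred on tested or on Phytophthora and nematode probe sets, 134 with the 99th percentile, 192 with detection on all 4 arrays, 48 without shared probe sets and 21 without a variance trend. Calls higher in embryo proper, 167 as reported, were 293, 334, 111 and 66 in the last 4 of these. With the replicate block they were 138 and 292, and neither SLE2 nor LEA-2 was called (adjusted p = 0.45 and 0.53). Pairing was not assumed because nothing says what a shared replicate number stands for. The deviations of arrays with the same number had a correlation of -0.0242. Leaving out 1 array gave 53 to 141 and 34 to 1280 calls. Seed maturation calls higher in suspensor, 1 as reported, were 2 after quantile normalization (MIPS4 and MIPS). They were 0 when centred on Phytophthora and nematode probe sets or without a variance trend. With detection on all 4 arrays or without shared probe sets they were also 0, but there the filter removed MIPS4 before the test. Stricter filters test fewer probe sets; otherwise the cause was not tested. Low signal over background and 2 arrays per region both limit these results.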
